A study of Mus musculus with 8 samples.

Results

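Collagen chain genes encode the single protein chains that wind in threes into collagen molecules. They were followed here in RNA sequencing of freshly sorted bile duct cells from the livers of wild-type C57BL/6 mice. A gene counted as a member when its symbol had the form of a collagen chain name, Col followed by a type number, the letter a and a chain number, and 41 of the 20377 gene symbols in the tables did. Where a member was listed with more than 1 transcript, as 5 were, the one with the largest summed count stood for the gene. The sort kept liver cells that bound the duct antibody MIC1-1C3, lacked CD26 and were not blood cells, and divided them by surface ST14, the membrane protease matriptase, into ST14high and ST14low. There were 8 libraries in all, replicates 1 to 4 of each population. The labels name no treatment and leave unsaid whether libraries stem from different mice, so p-values here reflect the spread among these libraries alone, and that spread may be technical.

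Collagens are the main fibrous proteins of the extracellular matrix. Chains are folded into triple helices in the endoplasmic reticulum, secreted, trimmed and cross-linked outside the cell. Fibrillar types such as I and III give tissue its tensile strength and in the liver are mostly made by stellate cells and portal fibroblasts, whereas type IV chains form the network of the basement membrane on which duct epithelium rests. The types that coat fibrils, form beaded filaments or span the cell membrane link these scaffolds to each other and to cells.

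The libraries held 17418200, 24149334, 42769980 and 33014576 counts in ST14high replicates 1 to 4, and 23321506, 19878913, 6398307 and 31011666 counts in ST14low replicates 1 to 4. ST14high replicate 1 stood apart: its score on the leading principal component was -107, and the scores of the other 7 libraries were -11.5 to 55.5, so results that rest on it are also given without it. Markers of biliary epithelium were abundant in every library, with summed levels of 14240.1 to 24993 CPM in ST14high libraries and 19381 to 26249 CPM in ST14low libraries. CPM are counts per 1000000 counts of a library, on library sizes scaled by edgeR's TMM factors, and values of 4 libraries are always listed from replicate 1 to replicate 4. Counts were tested with edgeR's quasi-likelihood test over 13749 genes, with Benjamini-Hochberg adjustment and a threshold of 0.05, which 0 genes passed (0% of those tested). Before adjustment 947 genes were higher in ST14high at p under 0.05 and 368 lower, and after adjustment DESeq2 called 219 genes higher and 14 lower and limma's voom 0 genes. The smallest edgeR adjusted p over all genes was 0.192.

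The promoters of Col4a1 and Col4a2 are shown because these neighbours start head to head and are the most abundant chain pair in these cells, and those of Col1a2 and Col3a1 because these chains had some of the largest differences between the populations. The windows come from RefSeq on build GRCm38.p6 and run 5′ to 3′ on the strand of the gene, from 250 bases before its start to 50 bases after it. In the Col4a1 window (chr8:11312777-11313076, minus strand) and the Col4a2 window (chr8:11312555-11312854, plus strand) capitals mark the 78 bases that both hold, read from opposite strands.
Col4a1: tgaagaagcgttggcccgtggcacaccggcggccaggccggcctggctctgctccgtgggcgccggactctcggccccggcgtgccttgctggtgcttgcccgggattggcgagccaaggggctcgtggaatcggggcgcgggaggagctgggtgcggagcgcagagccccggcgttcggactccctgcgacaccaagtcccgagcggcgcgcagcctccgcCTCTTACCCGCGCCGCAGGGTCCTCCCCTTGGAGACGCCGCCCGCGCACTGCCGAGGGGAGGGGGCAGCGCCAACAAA
Col4a2: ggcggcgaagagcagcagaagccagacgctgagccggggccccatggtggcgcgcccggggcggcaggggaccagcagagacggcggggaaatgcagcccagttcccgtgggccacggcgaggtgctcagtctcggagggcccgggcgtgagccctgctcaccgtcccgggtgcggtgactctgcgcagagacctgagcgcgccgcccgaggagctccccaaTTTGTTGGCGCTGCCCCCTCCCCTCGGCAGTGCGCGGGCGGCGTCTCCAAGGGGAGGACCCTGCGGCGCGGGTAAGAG
In the Col1a2 window (chr6:4505368-4505667, plus strand) capitals mark the motifs CCAAT and GGGCGG, and in the Col3a1 window (chr1:45311288-45311587, plus strand) they mark TATAAA, each searched on both strands.
Col1a2: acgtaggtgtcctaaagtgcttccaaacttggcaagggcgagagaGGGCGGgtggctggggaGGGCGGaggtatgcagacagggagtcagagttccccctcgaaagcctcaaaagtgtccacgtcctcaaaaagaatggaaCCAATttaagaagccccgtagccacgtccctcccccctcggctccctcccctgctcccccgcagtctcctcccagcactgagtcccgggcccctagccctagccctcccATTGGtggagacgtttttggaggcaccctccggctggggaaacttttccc
Col3a1: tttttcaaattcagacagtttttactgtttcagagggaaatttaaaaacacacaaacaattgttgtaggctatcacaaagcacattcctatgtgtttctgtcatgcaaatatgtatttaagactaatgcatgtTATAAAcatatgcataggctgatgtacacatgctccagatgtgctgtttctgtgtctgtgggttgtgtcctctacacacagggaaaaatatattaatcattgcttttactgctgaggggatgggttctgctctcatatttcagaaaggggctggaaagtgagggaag
Of the 41 members 33 had a window in the table, 36 windows in all. CCAAT occurred in 36.11% of the member windows and in 37.41% of all 32851 windows, and TATAAA in 13.89% and 13.62%. GGGCGG, the core letters of a GC box, occurred in 22 of the 36 member windows (61.11%) and in 35.66% of all windows. These counts describe letters in the windows, overlap of the motifs with each other was not examined, and no binding was measured.

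Of the 41 members 31 had enough reads to be tested. The other 10 had at most 77 counts over the 8 libraries: Col17a1, Col10a1, Col19a1, Col6a4, Col24a1, Col11a1, Col22a1, Col9a1 and Col2a1 had 77, 38, 26, 23, 21, 14, 8, 7 and 2 counts, and Col25a1 had 0. They include the cartilage chains Col2a1, Col9a1, Col10a1 and Col11a1, while Col9a2, Col9a3 and Col11a2, of the same types IX and XI, were tested. Of the tested members, Col6a6, Col7a1 and Col8a1 reached the read minimum of edgeR's filter in all 4 ST14high libraries but not in all 4 ST14low libraries, and Col9a2, Col13a1 and Col15a1 the other way round, and Col28a1 in at most 3 libraries of each population. With no minimum, the fit held 40 members, of which 31 were above 0, and the median log2 fold change was 1.30.

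Most collagen chain genes had higher fitted values in ST14high than in ST14low, but 0 of 31 passed the adjusted threshold. The log2 fold change of ST14high over ST14low was above 0 for 25 of 31 tested members, against 50.3% of all genes tested. The median over the members was 1.28, and over all genes 0.00. Fewer cells of a type and less RNA per cell cannot be told apart in such bulk values. Before adjustment, 18 of the 31 members were higher in ST14high at p under 0.05 and 0 were lower, where 6.89% and 2.68% of all genes were. Among the 18 were Col6a6, Col7a1 and Col8a1, which reached the read minimum in all libraries of ST14high only. They could enter the test through the population where they are higher, so they add no support to these counts. The smallest adjusted p among members was 0.259. For 12 members every ST14high library lay above every ST14low library, against 4.09% of all genes, and for 0 members every one lay below, against 2.33% of all genes. The exact two-sided permutation test over the 70 arrangements gave its smallest possible p, 0.0286, for these 12 members, which is 0.445 after adjustment over all genes tested. Col7a1 is among these 12 as well.

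The size of these differences depended on ST14high replicate 1 more than their direction did. It was the highest of the 8 libraries for 22 of 31 members, against 23.0% of all genes. In 13 tested members its CPM was more than 4 times the mean of the other ST14high libraries, and this held for 6.46% of all genes. Without this library, 24 of 31 members were above 0 against 47.9% of all genes, and the median of the members was 0.67 against -0.01 for all genes. Before adjustment, 14 members were then higher at p under 0.05 (6.07% of all genes) and 1, Col4a1, was lower (3.65% of all genes), again with 0 past the adjusted threshold, as for all genes (0%). Those no longer under 0.05 were Col4a6, Col5a1, Col5a3 and Col8a1. Col6a6 and Col7a1 were among the 14. With all libraries fitted they reached the read minimum in all libraries of ST14high only, so they add no support to this count. The 3 remaining ST14high libraries lay above every ST14low library for 13 members, against 6.74% of all genes, and below every one for Col4a1, against 5.02% of all genes. Col7a1 is among these 13 as well.

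**Figure D1:**
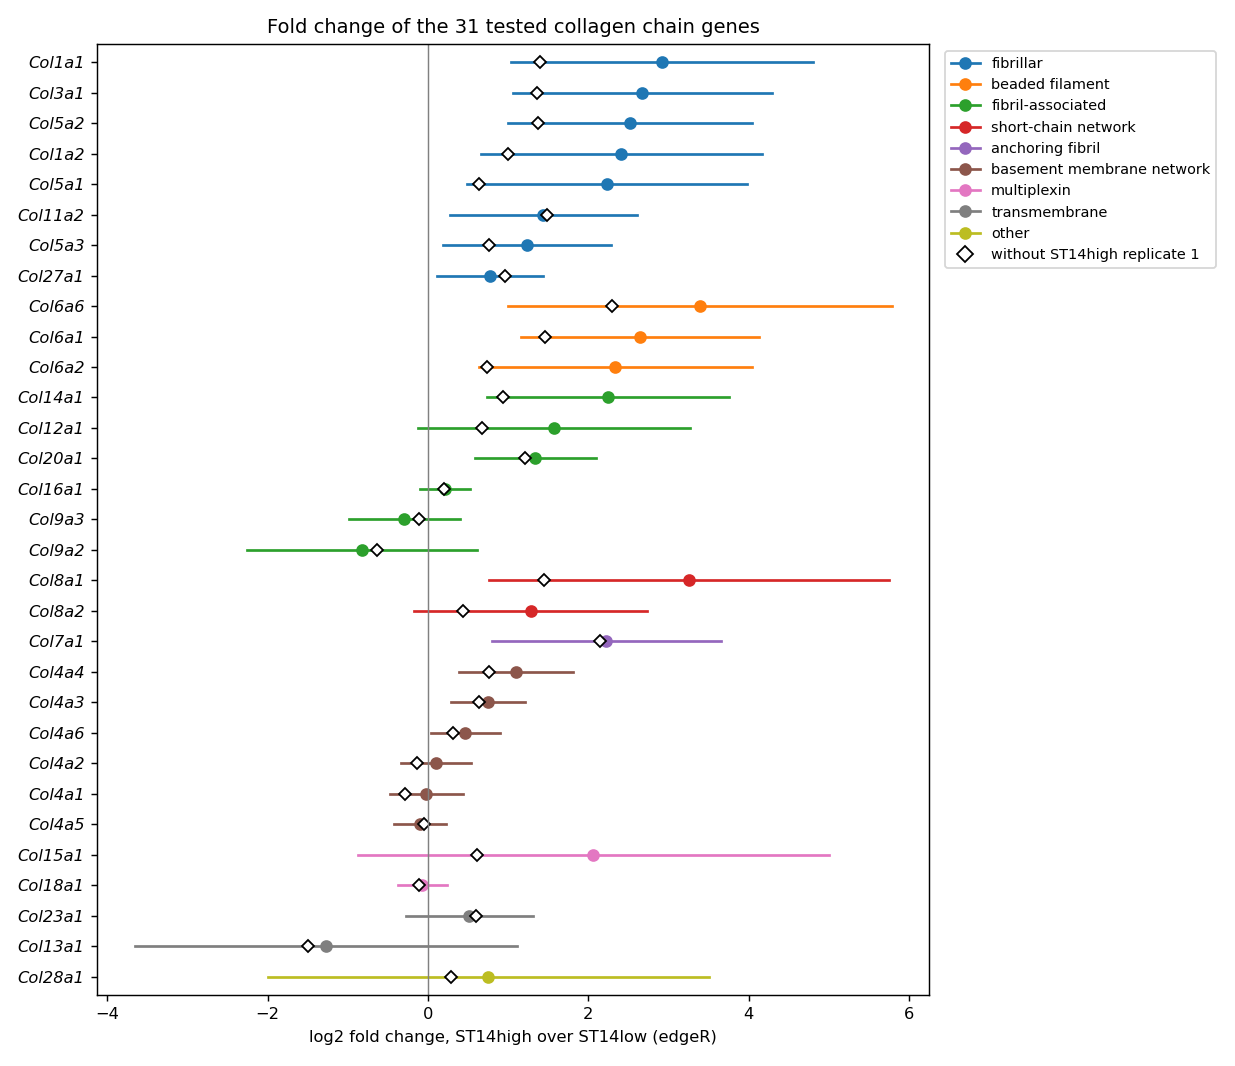
Log2 fold change of ST14high over ST14low for the 31 tested collagen chain genes, grouped by structural class, with 95% intervals from edgeR over all 8 libraries and, as open diamonds, the values without ST14high replicate 1. 25 of 31 values lie above 0, and the largest are those of Col6a6, Col8a1, Col1a1 and Col3a1.

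DESeq2's Wald test, run on the same counts, called 4 members higher in ST14high at an adjusted p under 0.05, of the 27 to which it gave one, and 0 lower, where it called 1.61% of all genes higher and 0.103% lower. These were Col5a2 (adjusted p = 0.00462), Col20a1 (0.0109), Col6a6 (0.0193) and Col6a1 (0.0249). Of these, Col6a6 reached the read minimum in all libraries of ST14high only. It gave no p-value for Col1a2, Col3a1, Col5a1 and Col6a2. Without ST14high replicate 1, DESeq2 called 5 members higher (1.45% of all genes) and 0 lower (0.592% of all genes). Of those, Col6a1, Col20a1 and Col5a2 had also been called with all libraries, at adjusted p of 0.00103, 0.046 and 0.0443 without this library, while Col3a1 (0.00686) and Col27a1 (0.0184) had not. With each of the 8 libraries left out in turn, DESeq2 called Col5a2 in all 7 fits that gave it a p-value, Col20a1 and Col6a6 in 5 of 8 each and Col6a1 in 4 of 8.

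Among the fibrillar chains, the 8 tested members were all above 0 and had a median log2 fold change of 2.32, or 1.18 without ST14high replicate 1. Col1a1 and Col1a2 encode the chains of type I collagen, the main collagen of bone, tendon and scar. Col1a1 (chr11:94797583-94813170, plus strand, build mm9) had 379.5, 33.3, 32.9 and 67.7 CPM in ST14high libraries, against 19, 6.2, 13.9 and 28.1 CPM in ST14low libraries. All ST14high libraries lay above all ST14low libraries, and ST14high replicate 1 was 8.5 times the mean of the other ST14high libraries. Its log2 fold change was 2.92 (SE 0.84) at an edgeR adjusted p of 0.31, and 1.40 without that library. Col1a2 (chr6:4455696-4491543, plus strand) had 325, 44.5, 34.4 and 48.3 CPM in ST14high libraries, against 24.6, 8.04, 13.7 and 37.8 CPM in ST14low libraries. Here the populations overlapped, since ST14high replicate 3 lay below ST14low replicate 4. The log2 fold change of Col1a2 was 2.41 (SE 0.78; edgeR adjusted p = 0.383), and 0.99 without ST14high replicate 1.

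Col3a1 (chr1:45368382-45406551, plus strand) encodes the only chain of type III collagen, which co-assembles with type I in soft tissue. It had 798, 106, 105 and 133 CPM in ST14high libraries, against 46.5, 20.6, 36.6 and 74.3 CPM in ST14low libraries. The lowest ST14high library was above the highest ST14low library. The log2 fold change was 2.68 (SE 0.73), with an edgeR adjusted p of 0.284, and 1.36 without ST14high replicate 1. Its neighbour Col5a2 (chr1:45431175-45560127, minus strand), a chain of type V collagen, which starts fibrils and sets their width, lies 24624 bases away on the opposite strand in mm9. Col5a2 had 73.1, 8.75, 9.49 and 19 CPM in ST14high libraries, against 2.94, 4.3, 6.48 and 5.66 CPM in ST14low libraries. The populations did not overlap, and the log2 fold change was 2.52 (SE 0.68; edgeR adjusted p = 0.284), and 1.37 without ST14high replicate 1.

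The other type V chains were less uniform. Col5a1 had 74.1, 8.43, 5.2 and 10.7 CPM in ST14high libraries, against 5.28, 3.59, 5.71 and 6.25 CPM in ST14low libraries. ST14high replicate 3 fell within the ST14low range, and the log2 fold change was 2.23 (SE 0.78), or 0.64 without ST14high replicate 1 (edgeR adjusted p = 0.411 and 0.568). Col5a3 was a low-level chain, with 11.3, 3.82, 4.25 and 5.1 CPM in ST14high libraries, against 2.86, 1.43, 2.47 and 3.56 CPM in ST14low libraries. Its populations did not overlap, and the log2 fold change was 1.23 (SE 0.47) at an edgeR adjusted p of 0.458, and 0.76 without ST14high replicate 1.

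Col11a2, a type XI chain best known from cartilage, and Col27a1, a fibrillar chain with a shortened helix, did not peak in ST14high replicate 1. Col11a2 had 1.89, 2.03, 2.64 and 1.81 CPM in ST14high libraries, against 0.554, 0.461, 0.926 and 1.16 CPM in ST14low libraries, so that all ST14high libraries were above all ST14low libraries at a level of few counts. Its log2 fold change was 1.44 (SE 0.52) and 1.48 without ST14high replicate 1 (edgeR adjusted p = 0.439 and 0.482). Col27a1 (chr4:62876445-62996024, plus strand) was the most abundant fibrillar chain in ST14low and had 167, 249, 423 and 313 CPM in ST14high libraries, against 169.5, 102, 201 and 202 CPM in ST14low libraries. ST14high replicate 1 was the lowest ST14high library, at 0.508 of the mean of the others, and lay among the ST14low libraries, whereas ST14high replicates 2 to 4 were above all of them. Over all libraries, the log2 fold change of Col27a1 was 0.77 (SE 0.30), with an edgeR adjusted p of 0.468. Without ST14high replicate 1 it was 0.96, with an edgeR adjusted p of 0.244.

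**Figure D2:**
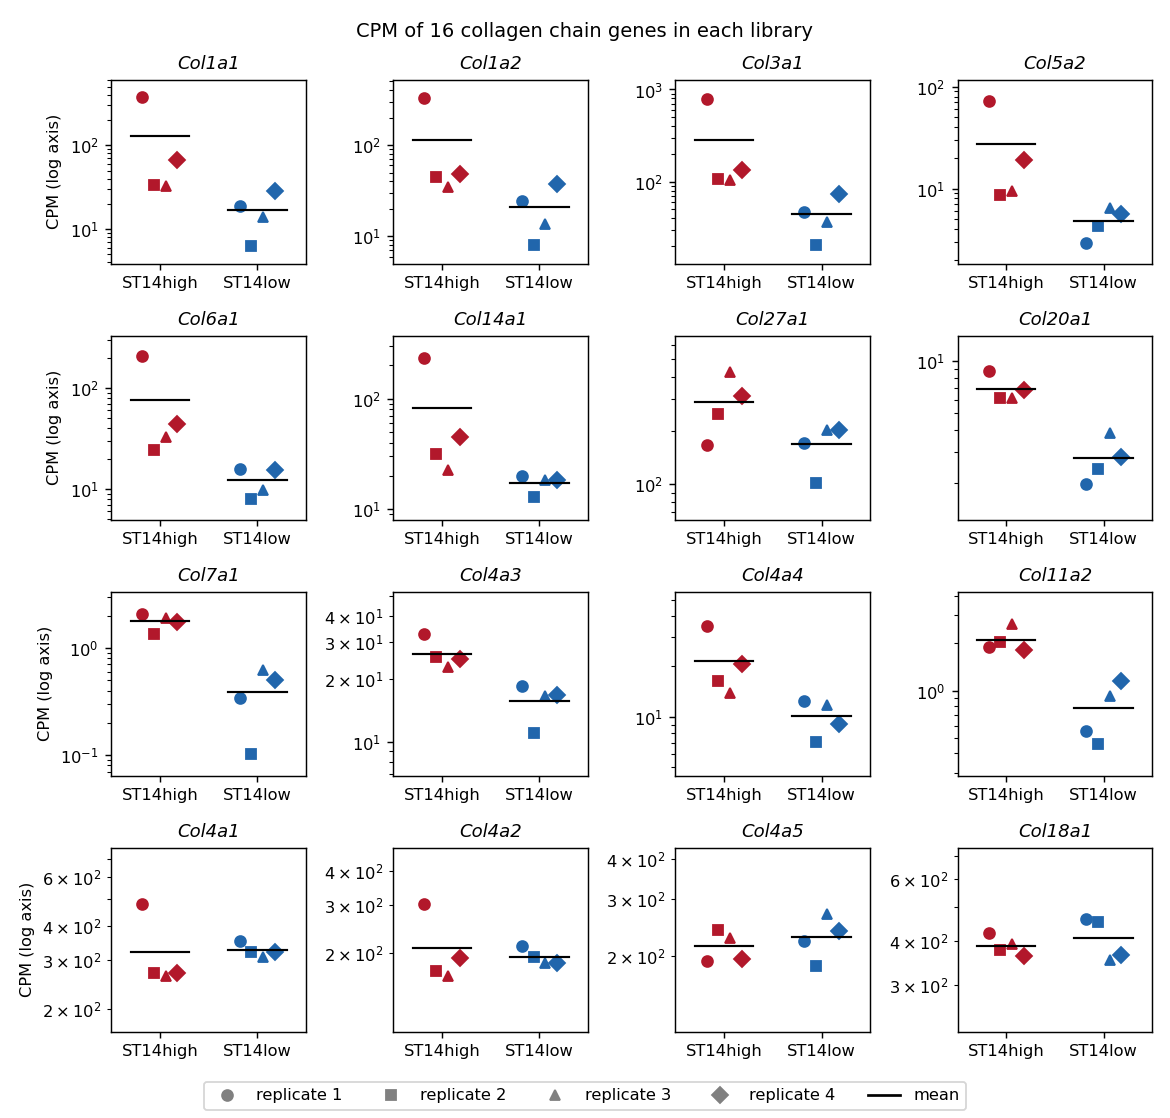
CPM of selected collagen chains in each library on a log axis, with ST14high left of ST14low, one point per library, a symbol for each replicate number and a line at the mean. Col1a1, Col3a1 and Col6a1 are highest in ST14high replicate 1, at 379.5, 798 and 206 CPM, while Col27a1 is highest in ST14high replicate 3, at 423 CPM.

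The chains of type VI collagen, which forms beaded filaments around cells, also had fold changes above 0. The 3 tested members had a median log2 fold change of 2.64, and 1.46 without ST14high replicate 1. Of the 3, Col6a6 reached the read minimum in all libraries of ST14high only. Col6a1 (chr10:76171536-76188789, minus strand) had 206, 24.1, 32.5 and 44.4 CPM in ST14high libraries, against 15.7, 7.94, 9.72 and 15.3 CPM in ST14low libraries. The populations did not overlap, with the nearest values being 24.1 CPM in ST14high and 15.7 CPM in ST14low. The log2 fold change of Col6a1 was 2.64 (SE 0.66), with an edgeR adjusted p of 0.259, and 1.46 without ST14high replicate 1. Col6a2, its partner in the type VI trimer, had 161, 19.5, 16 and 17.1 CPM in ST14high libraries, against 13.5, 8.04, 7.72 and 12.5 CPM in ST14low libraries. It too separated the populations, by a narrower margin. Its log2 fold change was 2.34 (SE 0.76) and 0.74 without ST14high replicate 1, which held 9.18 times the mean of the other ST14high libraries (edgeR adjusted p = 0.383 and 0.38). Col6a6, a longer chain related to Col6a3, had 25.8, 1.39, 2.55 and 9.68 CPM in ST14high libraries, against 1.28, 0.0512, 0.463 and 1.75 CPM in ST14low libraries. ST14high replicate 2 lay below ST14low replicate 4, so the populations overlapped, and the log2 fold change was 3.39 (SE 1.07) with an edgeR adjusted p of 0.364. Without ST14high replicate 1, which held 5.68 times the mean of the other ST14high libraries, it was 2.29 (edgeR adjusted p = 0.488). Col6a3 was not analysed here.

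**Figure D3:**
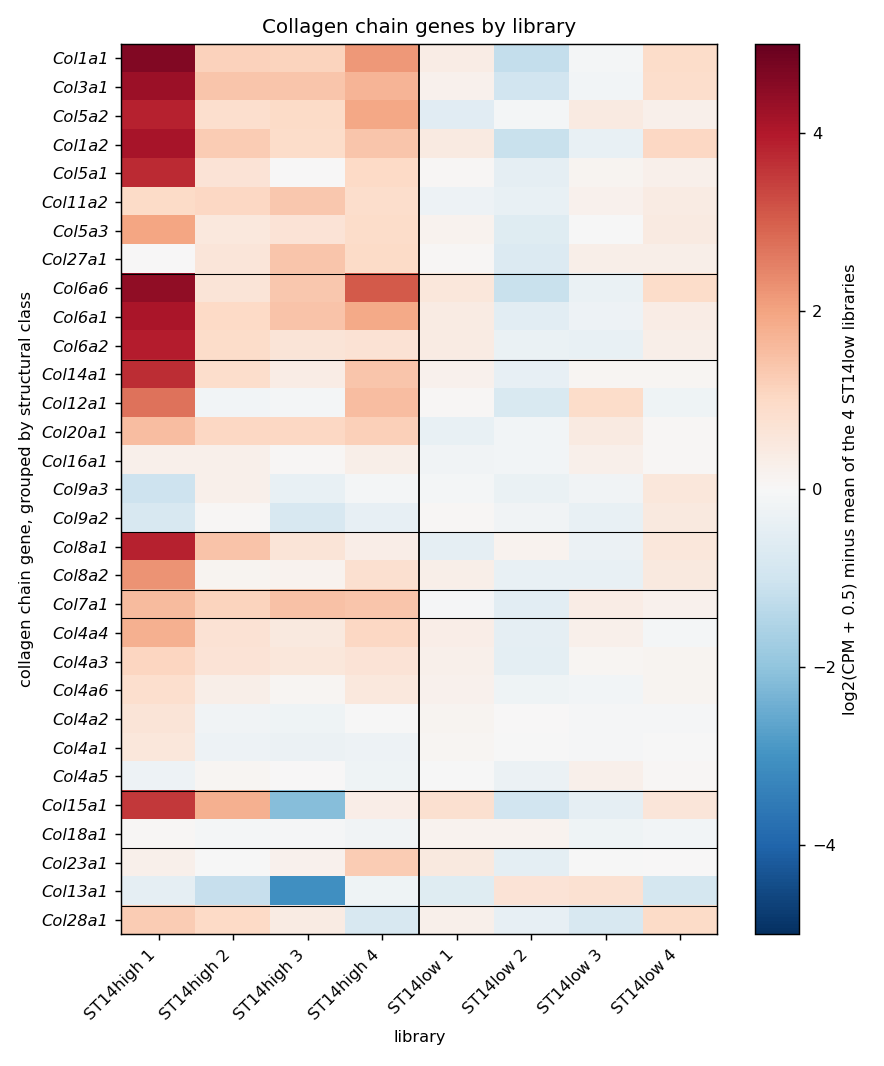
Level of the 31 tested collagen chain genes in each library as log2(CPM + 0.5) minus the mean of the ST14low libraries, ST14high libraries left of ST14low libraries. The first column, ST14high replicate 1, holds the darkest cells, those of Col1a1, Col3a1 and Col6a6 among them, and Col4a1, Col4a2, Col4a5 and Col18a1 differ little between the columns.

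The basement membrane chains had log2 fold changes between -0.10 for Col4a5 and 1.10 for Col4a4. Type IV chains are encoded by 3 pairs of genes, each pair lying head to head on opposite strands, with 2, 71 and 1342 bases between Col4a1 and Col4a2, Col4a3 and Col4a4, and Col4a5 and Col4a6 in mm9. The 6 members had a median log2 fold change of 0.28, and 0.13 without ST14high replicate 1, and 4 of 6 were above 0. Col4a1 and Col4a2, the chains of the common type IV network, had log2 fold changes of -0.02 (SE 0.20) and 0.10 (SE 0.20), with 95% intervals of -0.48 to 0.43 and -0.33 to 0.54. Col4a1 had 479, 269, 264 and 269.6 CPM in ST14high libraries, against 351, 321, 309 and 321 CPM in ST14low libraries. Apart from replicate 1, all ST14high libraries lay below all ST14low libraries, and without replicate 1 the log2 fold change was -0.28 (edgeR adjusted p = 0.498). Col4a2 had 304, 172, 165 and 192 CPM in ST14high libraries, against 212, 194, 185 and 184 CPM in ST14low libraries. It too was highest in ST14high replicate 1, and otherwise the populations overlapped, with a log2 fold change of -0.14 without that library.

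Col4a3 and Col4a4, chains of the specialised network of kidney glomeruli and other basement membranes, were higher in every ST14high library than in any ST14low library. Col4a3 (chr1:82583495-82718634, plus strand) had 32.8, 25.4, 22.9 and 25.1 CPM in ST14high libraries, against 18.5, 11, 16.7 and 16.9 CPM in ST14low libraries. Col4a4 had 34.9, 16.4, 13.9 and 20.8 CPM in ST14high libraries, against 12.4, 7.12, 11.7 and 9.04 CPM in ST14low libraries. Log2 fold changes were 0.75 (SE 0.21) and 1.10 (SE 0.32), with edgeR adjusted p of 0.284 and 0.312, and without ST14high replicate 1 they were 0.63 and 0.76. ST14high replicate 1 was 1.34 times the mean of the other ST14high libraries for Col4a3, where it was 8.5 times for Col1a1.

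Col4a5, which can join either Col4a3 and Col4a4 or Col4a6 in a trimer, had 193, 241, 228 and 196 CPM in ST14high libraries, against 223, 187, 270.0 and 239 CPM in ST14low libraries. Its populations overlapped throughout and the log2 fold change of -0.10 (SE 0.15) had a 95% interval of -0.43 to 0.23 (edgeR adjusted p = 0.839). Col4a6 had 46.4, 31.6, 27.1 and 36.9 CPM in ST14high libraries, against 29.3, 22.1, 23.1 and 28 CPM in ST14low libraries. ST14high replicate 3 lay within the ST14low range, and the log2 fold change was 0.47 (SE 0.19; edgeR adjusted p = 0.499), and 0.31 without ST14high replicate 1.

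Within a library the balance of 2 chains does not depend on library size. The ratio of Col4a1 to Col4a2, from deposited RPKM (reads scaled by transcript length and library size), was 1.56, 1.54, 1.58 and 1.39 in ST14high libraries, against 1.63, 1.64, 1.65 and 1.72 in ST14low libraries. It was lower in every ST14high library than in any ST14low library, and averaged 1.52 ± 0.0874 in ST14high and 1.66 ± 0.0407 in ST14low (SD, n = 4 each; exact permutation p = 0.0286, or 0.143 adjusted over the 5 ratios examined). The ratio of Col6a1 to Col6a2 was 1.26, 1.21, 1.998 and 2.56 in ST14high libraries, against 1.14, 0.972, 1.24 and 1.21 in ST14low libraries. ST14high replicates 3 and 4 were well above the other 6 libraries, and the exact permutation p was 0.0571, or 0.143 adjusted. The ratio of Col4a5 to Col4a6 averaged 6.88 ± 2.14 in ST14high and 9.77 ± 1.92 in ST14low (SD, n = 4 each; exact permutation p = 0.0857, adjusted 0.143). For Col1a1 over Col1a2 and Col4a3 over Col4a4 the exact permutation p were 0.229 and 0.286, both 0.286 after adjustment.

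Of the fibril-associated chains, which bind to fibril surfaces, 4 of 6 tested members were above 0, for a median log2 fold change of 0.77, or 0.44 without ST14high replicate 1. Col20a1, a rarer chain of this class, had 8.71, 6.09, 6.09 and 6.77 CPM in ST14high libraries, against 1.96, 2.41, 3.86 and 2.81 CPM in ST14low libraries. The populations did not overlap, and ST14high replicate 1 was 1.38 times the mean of the other ST14high libraries. Its fold change on the log2 scale was 1.34 (SE 0.34), or 1.21 without it (edgeR adjusted p = 0.259 and 0.306). Col14a1, a chain of interstitial fibril surfaces, had 231, 31.6, 22.6 and 45.3 CPM in ST14high libraries, against 19.99, 12.9, 18.5 and 18.2 CPM in ST14low libraries. The populations did not overlap, although ST14high replicate 3 was close to ST14low replicate 1, and the log2 fold change was 2.24 (SE 0.68), or 0.93 without ST14high replicate 1 (edgeR adjusted p = 0.331 and 0.254). Col12a1, Col16a1, Col9a3 and Col9a2 had log2 fold changes of 1.57, 0.21, -0.30 and -0.82, none with an unadjusted p under 0.05, and without ST14high replicate 1 that of Col12a1 was 0.67. Reads of Col9a3 may include those of Tcfl5, which overlaps it on the opposite strand and had at most 85 counts, against 3334 for Col9a3.

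Col7a1, the single chain of the anchoring fibrils that tie epithelial basement membranes to the tissue below, was rare in both populations. It had 2.08, 1.35, 1.91 and 1.75 CPM in ST14high libraries, against 0.341, 0.102, 0.617 and 0.5 CPM in ST14low libraries, from 237 counts in all. The populations did not overlap, and the log2 fold change was 2.22 (SE 0.64) and 2.14 without ST14high replicate 1 (edgeR adjusted p = 0.31 and 0.384). Col8a1, a short chain that forms hexagonal networks and is known from vessel walls, had 10.9, 1.67, 0.756 and 0.505 CPM in ST14high libraries, against 0.0852, 0.41, 0.154 and 0.688 CPM in ST14low libraries. Most of its reads came from ST14high replicate 1, the remaining libraries overlapped, and the log2 fold change of 3.26 (SE 1.12) became 1.44 without that library (edgeR adjusted p = 0.399 and 0.623). Its partner Col8a2 had a log2 fold change of 1.28 (SE 0.65), or 0.44 without ST14high replicate 1, not past an unadjusted p of 0.05.

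Col18a1, a multiplexin of basement membranes whose end fragment is endostatin, was the most abundant collagen chain in both populations by RPKM. It had 422, 377, 392 and 362 CPM in ST14high libraries, against 461, 452, 352 and 366 CPM in ST14low libraries. The populations overlapped, and the log2 fold change of -0.07 (SE 0.14) had a 95% interval of -0.38 to 0.23 (edgeR adjusted p = 0.883). The other multiplexin, Col15a1, had 24.2, 6.88, 0 and 2.2 CPM in ST14high libraries, against 3.24, 0.615, 1.08 and 2.81 CPM in ST14low libraries. It was at 0 in ST14high replicate 3 and highest in ST14high replicate 1. Its fold change on the log2 scale, 2.06 (SE 1.31), had an edgeR adjusted p of 0.631, and was 0.61 without ST14high replicate 1, which held 8.01 times the mean of the other ST14high libraries. The transmembrane chains Col13a1 and Col23a1 had log2 fold changes of -1.27 (SE 1.07) and 0.51 (SE 0.35), and Col28a1 had 0.75 (SE 1.23), or 0.29 without ST14high replicate 1, none with an unadjusted p under 0.05. Col13a1 was at 0 in ST14high replicate 3, and Col28a1 was at 0 in ST14high replicate 4 and ST14low replicate 3. A count of 0 there allows up to 0.0701, 0.0909 and 0.469 CPM of the unscaled totals, taking 3 counts as the limit, for counting error only.

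Levels of different chains can be compared per length, in deposited RPKM. Averaged over the 4 libraries, Col18a1 was at 91.6 ± 2.32 RPKM in ST14high and 98.1 ± 12.3 RPKM in ST14low, and Col4a1 at 66 ± 17.4 RPKM in ST14high and 69.2 ± 3.95 RPKM in ST14low (SD, n = 4 each). Col4a5 was at 45.9 ± 6.97 RPKM in ST14high and 49.97 ± 8.2 RPKM in ST14low, and Col4a2 at 43.5 ± 10.8 RPKM in ST14high and 41.7 ± 2.64 RPKM in ST14low. In ST14low these 4 chains stood above the rest, of which the next were Col27a1 at 31.3 ± 9.17 RPKM and Col16a1 at 16.7 ± 2.53 RPKM. The library values of Col4a5 and Col4a2 overlapped in both populations. In ST14high the second rank went to Col3a1, at 72.5 ± 82.2 RPKM, but its SD exceeded its mean, and replicate 1 held 196 RPKM where the others held 29.8, 28.1 and 36.5 RPKM. At the low end of the tested members, Col7a1 had 0.35 ± 0.0476 RPKM in ST14high and 0.08 ± 0.0469 RPKM in ST14low.

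The same RPKM give the make-up of the collagen chain RNA, as a description with no test. Fibrillar chains held 47.6, 25.1, 30.8 and 30.5% of the summed collagen RPKM in ST14high libraries, against 15.3, 9.25, 16.3 and 21% in ST14low libraries. Every ST14high share was above every ST14low share. Within this class, Col1a1, Col1a2 and Col3a1 together held 41.8, 12.9, 11.7 and 16.2% in ST14high libraries, against 6.75, 3.04, 5.2 and 10.6% in ST14low libraries. Col27a1, of the same class, was at 27.9, 47.5, 76.9 and 58.6 RPKM in ST14high libraries, against 31.4, 18.4, 37.4 and 38.25 RPKM in ST14low libraries. Type IV chains held 21.3, 38, 35 and 33.9% in ST14high libraries, against 45.1, 46.8, 47.3 and 43% in ST14low libraries, and here all ST14high shares were below all ST14low shares. Shares within a library sum to a whole, so a higher share of one class lowers the others. The summed level of all 41 chains was 4114, 1770.2, 1886 and 1936 CPM in ST14high libraries, against 1710.2, 1442, 1579 and 1668 CPM in ST14low libraries, again without overlap.

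**Figure D4:**
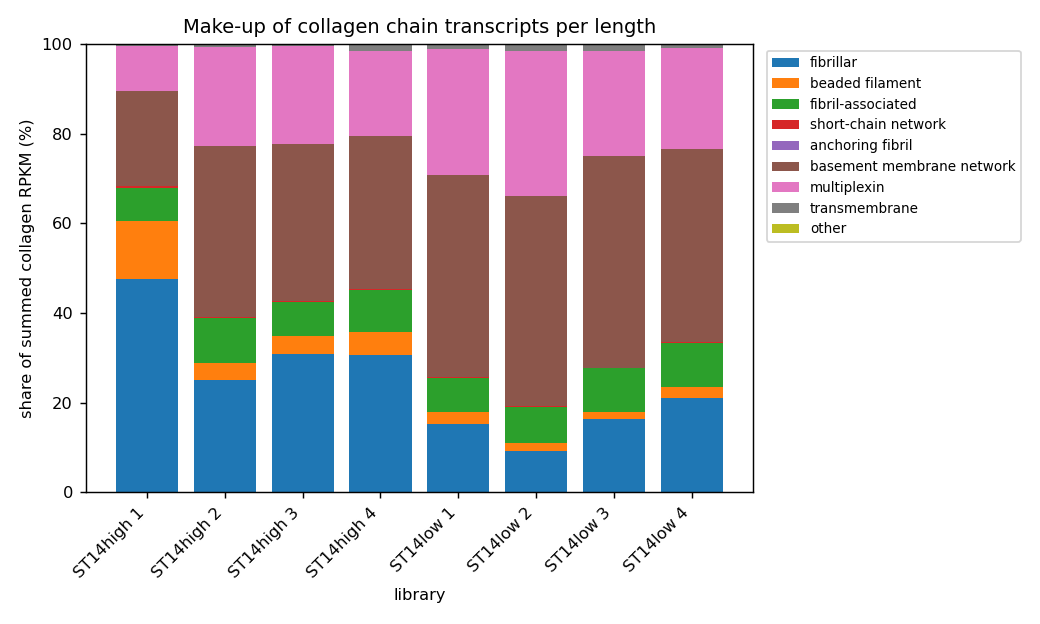
Share of each structural class in the summed RPKM of collagen chains, in percent, one bar per library with ST14high left of ST14low. The fibrillar share is 47.6% in ST14high replicate 1 and 25.1% to 30.8% in the other ST14high libraries, against 9.25% to 21.0% in ST14low libraries.

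Markers of other cell types, some of which make collagen, were set beside these values, with counts of fold changes above 0 taken over all 8 libraries. The 6 mesothelial markers found in the tables all had fold changes above 0, and their summed levels ranged from 298 to 1021 CPM in ST14high libraries and 156 to 269 CPM in ST14low libraries. Of 10 fibroblast markers 9 were above 0, with sums of 227 to 921 CPM in ST14high libraries and 127 to 182 CPM in ST14low libraries, and of 6 smooth muscle markers all were, with sums of 42.1 to 897 CPM in ST14high libraries and 8.33 to 54.1 CPM in ST14low libraries. Apart from ST14high replicate 1, of the fibroblast markers only Dcn, Fbln1 and Clec3b were above every ST14low library in each ST14high library. The other fibroblast markers then stayed below the highest ST14low library. The mesothelial markers Msln, Wt1, Upk1b, Upk3b and Lrrn4 were above every ST14low library in each ST14high library. So were Tagln and Lmod1 of smooth muscle and Des of stellate cells, but no other marker of the mesothelial, smooth muscle and stellate lists. Most of the mesothelial sum in ST14low libraries was Gpm6a, at 172, 133, 214 and 192 CPM. Stellate cell and pericyte markers, 8 of 10 above 0, overlapped between the populations, their sums ranging over 368 to 547 CPM in ST14high libraries and 279 to 539 CPM in ST14low libraries. Markers of endothelium went the other way, with 0 of 9 above 0 and sums of 20.3 to 1034 CPM in ST14high libraries and 267 to 1138 CPM in ST14low libraries, as did those of macrophages (0 of 6, sums of 0.803 to 114 CPM in ST14high libraries and 95.5 to 429 CPM in ST14low libraries). Of the pancreatic acinar markers 3 of 8 were tested, all above 0, and the sum of the 8 was 8609 CPM in ST14high replicate 1, where the other ST14high libraries had 1217, 2.6 and 5.76 CPM, and ST14low libraries had 1.64 to 93.4 CPM. Hepatocyte markers (0 of 6 above 0) summed to 4780.2 to 12110.4 CPM in ST14high libraries and 7527 to 13987 CPM in ST14low libraries, and Schwann cell markers (3 of 4 tested) to 7.93 to 32.6 CPM in ST14high libraries and 7.53 to 13.4 CPM in ST14low libraries. No marker was at 0 in all 8 libraries, and Dpt, Actg2, Ngfr, Vsig4, Timd4, Ctrb1 and Gfap were each at 0 in ST14high replicate 3 and in no other library. That library had the lowest ST14high sums of fibroblast and smooth muscle markers, 227 and 42.1 CPM, and its mesothelial sum was 341 CPM. Its Col3a1 and Col6a1, at 105 and 32.5 CPM, were above every ST14low library, as were its fibroblast and mesothelial sums. Most of that fibroblast sum was Dcn at 149 CPM and Entpd2 at 61.2 CPM. Dcn, Fbln1 and Clec3b were above every ST14low library there, but Lum, Pdgfra, Dpt, Mfap4 and Pi16 were below every one. The part of these cell types in the collagen values was not tested.

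**Figure D5:**
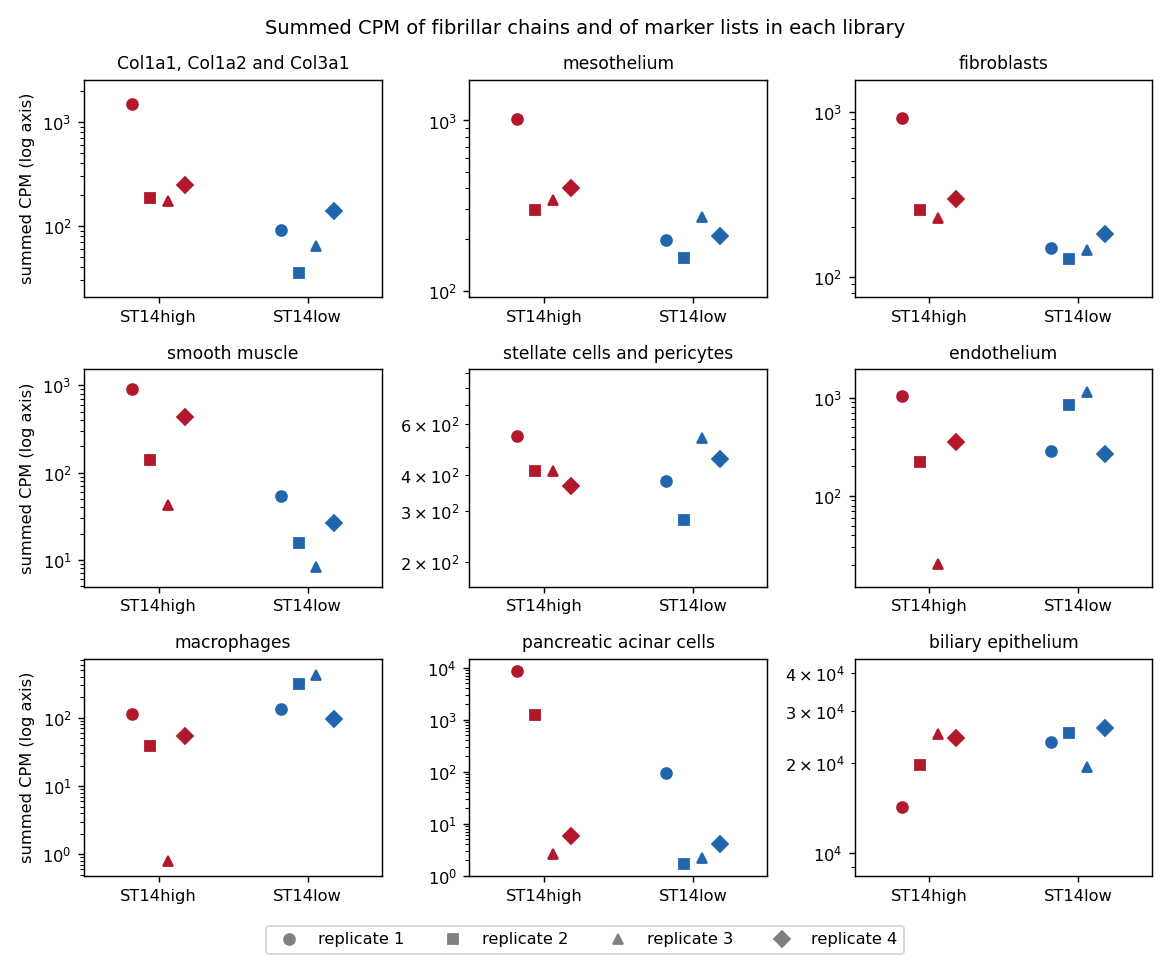
Summed CPM of Col1a1, Col1a2 and Col3a1 and of marker genes of each cell type, on log axes, ST14high left of ST14low, one point per library and a symbol for each replicate number. Mesothelial and fibroblast sums are above those of all ST14low libraries in every ST14high library, whereas endothelial and macrophage sums are lowest in ST14high replicate 3, at 20.3 and 0.803 CPM.

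Genes that build, trim, bind and degrade collagen were followed in 4 lists. None of their members passed edgeR's adjusted threshold, as for all genes (0%). Of the genes for folding and secreting chains in the endoplasmic reticulum, 15 of 22 tested were above 0, the median log2 fold change being 0.12, and without ST14high replicate 1 these were 12 of 22 and 0.01. The 1 gene higher at an unadjusted p under 0.05 stood against 6.89% of all genes. That was Creb3l1, a transcription factor that drives collagen secretion, with 99.1, 35.7, 50.04 and 44.3 CPM in ST14high libraries, against 36.5, 35.7, 28.5 and 33.5 CPM in ST14low libraries. Creb3l1 was highest in ST14high replicate 1 and the populations just overlapped, with a log2 fold change of 0.77 (SE 0.29; edgeR adjusted p = 0.458), and of 0.37 without that library, where its unadjusted p was no longer under 0.05. P4hb, a subunit of prolyl 4-hydroxylase, and Serpinh1, the collagen chaperone HSP47, had log2 fold changes of -0.08 (SE 0.20) and 0.11 (SE 0.30).

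The list of enzymes that trim and cross-link procollagen had a median log2 fold change of 0.73, and 0.36 without ST14high replicate 1. Of its 12 tested genes 10 were above 0, and 6 were higher at an unadjusted p under 0.05, against 6.89% of all genes. Without ST14high replicate 1, only Loxl1 and Pcolce of the 6 were still higher at that p, against 6.07% of all genes. Pcolce2 was then lower at that p, against 3.65% of all genes. Loxl1, a lysyl oxidase that cross-links matrix fibres, had 56.9, 15.1, 15.2 and 15.3 CPM in ST14high libraries, against 11.2, 8.56, 6.79 and 10.1 CPM in ST14low libraries. The populations did not overlap, and the log2 fold change was 1.47 (SE 0.46) and 0.72 without ST14high replicate 1 (edgeR adjusted p = 0.354 and 0.332). Lox, the founding lysyl oxidase, Adamts2, which removes the amino end of procollagen, and Pcolce, an enhancer of carboxyl-end removal, had log2 fold changes of 2.87 (SE 0.95), 2.16 (SE 0.74) and 1.13 (SE 0.40). These became 0.95, 0.74 and 0.51 without ST14high replicate 1. Furin and Bmp1, the genes of highest mean CPM in this list, had log2 fold changes of 0.00 (SE 0.12) and 0.05 (SE 0.13).

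Among collagen receptors 7 of 12 tested genes were above 0, for a median log2 fold change of 0.33, and 5 were higher at an unadjusted p under 0.05, against 6.89% of all genes. Without ST14high replicate 1 the median was 0.27. Ddr2, Mrc2 and Antxr1 of the 5 were then still higher at that p, against 6.07% of all genes, but Itga10 and Cd44 were not. Ddr2, a receptor kinase for fibrillar collagen, had 76, 12.7, 7.13 and 19 CPM in ST14high libraries, against 3.15, 1.64, 4.78 and 4.66 CPM in ST14low libraries. Mrc2, an endocytic collagen receptor, had 31.8, 5.89, 5.24 and 10.1 CPM in ST14high libraries, against 2.81, 1.38, 1.7 and 3.22 CPM in ST14low libraries. Antxr1, a membrane receptor that binds collagen, had 48.6, 10.2, 9.14 and 9.68 CPM in ST14high libraries, against 3.11, 1.28, 3.24 and 2.94 CPM in ST14low libraries. Each of the 3 separated the populations, with every ST14high library above every ST14low library, against 4.09% of all genes. Log2 fold changes were 3.02 (SE 0.73), 2.51 (SE 0.62) and 2.88 (SE 0.63), with edgeR adjusted p of 0.246, 0.249 and 0.192, and 1.88, 1.61 and 1.88 without ST14high replicate 1. DESeq2 called Ddr2 and Mrc2 higher, at adjusted p of 0.000457 and 0.00381, where it called 1.61% of all genes higher, and gave no p-value for Antxr1. Itga10, an integrin subunit for collagen, had a log2 fold change of 1.17 (SE 0.46), and 1.09 without ST14high replicate 1. Ddr1 and Itgb1, the collagen receptor kinase and the shared integrin subunit of epithelial cells, had -0.10 (SE 0.14) and -0.03 (SE 0.12).

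In the list of collagen-degrading enzymes 3 of 8 tested genes were above 0, for a median log2 fold change of -0.09. Ctsk, a cathepsin that cleaves triple helices, was the 1 gene higher at an unadjusted p under 0.05, against 6.89% of all genes, with a log2 fold change of 1.90 (SE 0.84). Without ST14high replicate 1 the fold change was 1.51 and the unadjusted p was no longer under 0.05. It had 4.23, 1.23, 0.213 and 4.21 CPM in ST14high libraries, against 0.426, 0.768, 0.772 and 0.688 CPM in ST14low libraries, and the populations overlapped. Ctsb and Mmp15, the genes of highest mean CPM in the list, had log2 fold changes of -0.13 (SE 0.24) and -0.14 (SE 0.15).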

How the data were processed

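Per the file headers, each deposited file lists RefSeq transcripts with their position, gene symbol, raw read count and RPKM. The authors deposited each count as a raw whole number. RPKM in the same deposited files divide the reads by transcript length and by library size. Per the labels' protocols, sorted cells went into TRIzol and libraries were made with a TruSeq kit. CASAVA 1.8.2 and Bowtie 1.0.0 are named in the submitters' processing notes, with no role stated, as is the genome build mm9. How reads were counted, on which annotation release and with what regard to strand is not given in the sources used here, so reads of near-identical or overlapping genes could not be separated. Among the members, Col9a3 overlaps Tcfl5 and Col10a1 overlaps Nt5dc1, both on opposite strands.

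Of 26005 transcripts, 1 per symbol was kept. The count test was edgeR 4.0.16 under R 4.3.3 (quasi-likelihood test, TMM factors, filterByExpr, population as the only term), two-sided, with p-values adjusted by the Benjamini-Hochberg method over all genes tested. The common biological coefficient of variation was 38.4%. DESeq2 1.42.0 and limma 3.58.1 (voom with quality weights) were the other tools. Exact permutation tests of genes used log2(CPM + 1), and those of chain ratios used the log2 of the RPKM ratio. The procedure was tested only on simulated data with less spread than these and with no library standing apart. Plots were drawn with matplotlib 3.10.9, and tables were made with pandas 2.3.3 and numpy 2.4.6 under Python 3.11.15. RPKM served for levels, shares and ratios of genes and entered no edgeR test.

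Alternatives were library totals or DESeq2's size factors instead of TMM, dropping the low-count filter or requiring 5 CPM in 4 libraries, the other tools, the longest transcript, a block for the replicate number and the omission of each library. Described in full were the members with an unadjusted edgeR p under 0.05 or populations that did not overlap and the 8 of highest mean RPKM, 22 in all, and of each pathway list up to 4 genes with p under 0.05 plus the 2 of highest mean CPM. The members, lists and tests were chosen with earlier results of these data known. The lists of markers and of pathway genes were drawn up by hand from textbook knowledge.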

Additional observations from a re-analysis of the deposited data

Results flagged for a closer look

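With 4 libraries in a population, the gap of a library to the nearest other value was taken as a part of the whole range. The library was noted when this part was above Dixon's 95% critical value. Chance gives that in about 1 in 20 groups of independent, normally distributed values. The rule was not run over all genes, and CPM of different members are not independent, so the counts are a description only. Of 62 groups of collagen members 11 held such a library, 10 of them through ST14high replicate 1. That library stood apart high in Col3a1 at 798 CPM, Col4a1 at 479 CPM, Col1a1 at 379.5 CPM, Col1a2 at 325 CPM and Col14a1 at 231 CPM. The same held for Col6a1 at 206 CPM, Col6a2 at 161 CPM, Col5a1 at 74.1 CPM, Col5a2 at 73.1 CPM and Col8a1 at 10.9 CPM. The exception was Col23a1, a transmembrane chain, which stood apart in ST14high replicate 4 at 20.4 CPM.

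Among sums and shares, ST14high replicate 1 stood apart in the summed level of all collagen chains at 4114 CPM, in the share of Col1a1, Col1a2 and Col3a1 at 41.8% of collagen RPKM, and in the share of beaded filament chains at 12.9%. The ratio of Col1a1 to Col1a2 was far from the others in ST14low replicate 3, at 1.17, and that of Col4a1 to Col4a2 in ST14high replicate 4, at 1.39.

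Of the pathway genes, ST14high replicate 1 stood apart in Ctsb at 871 CPM, P4hb at 833 CPM, Pcolce at 100.3 CPM, Adamts2 at 81.3 CPM, Loxl1 at 56.9 CPM, Antxr1 at 48.6 CPM and Lox at 23.1 CPM. Antxr1 was also low in ST14low replicate 2, at 1.28 CPM. Of the marker sums, ST14high replicate 1 stood apart for mesothelium at 1021 CPM, fibroblasts at 921 CPM and pancreatic acinar cells at 8609 CPM, and ST14low replicate 1 for pancreatic acinar cells at 93.4 CPM.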

How the results depend on the processing

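Of the 31 tested members, 27 kept their direction in each of the 16 other fits that tested them, 8 of them leaving out 1 library each. The exceptions were Col15a1, Col28a1 and Col4a2, at -1.18, -0.0074 and -0.051 under limma's voom with quality weights, and, with each library left out in turn, Col4a2 at -0.14 to 0.18 and Col4a1 at -0.28 to 0.0498. The cause was not tested. With 5 CPM in at least 4 libraries, 16 of 20 members were above 0, since fewer members were tested. The median of the members was 0.54 under voom and 0.67 to 1.45 with each library left out, lowest without ST14high replicate 1. The median of collagen receptors was 0.24 to 0.86, highest without ST14low replicate 3. DESeq2 called 233 genes and 4 members where edgeR called 0 of each. Leaving out each library with DESeq2 was chosen after seeing the data: it called 283, 262, 421 and 216 genes, of them 5, 6, 9 and 3 members, without ST14high replicates 1 to 4, and 161, 178, 313 and 163 genes, of them 2, 1, 3 and 2 members, without ST14low replicates 1 to 4. These counts of members are not comparable between fits, since not every member received an adjusted p in each. Col3a1 and Col6a2 had one in 1 of 8 fits, and Col1a2 in 3 of 8.

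With the replicate number as a block, edgeR called 2 genes and 0 members. The deviations of same-numbered libraries correlated at 0.052, 0.052, -0.12 and 0.0054 for numbers 1 to 4. Such values cannot tell whether same-numbered libraries share a mouse or a sort, and the labels do not say. Depth limits low chains: ST14low replicate 3 held 6398307 counts, and Col7a1, Col8a1, Col9a2 and Col28a1 had under 300 counts over all libraries.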

Other observations

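A further gene, listed as Gm7455, fell outside the rule for members, and RefSeq's gene table gives that symbol as a synonym of Col6a5, a chain of type VI collagen related to Col6a3. It was looked up after the other type VI values had been seen. Gm7455 had 72.7, 6.92, 9.19 and 11.2 CPM in ST14high libraries, against 3.79, 1.18, 2.78 and 4.28 CPM in ST14low libraries. All ST14high libraries lay above all ST14low libraries, and ST14high replicate 1 was the highest. The log2 fold change was 3.03 (SE 0.81), with an edgeR adjusted p of 0.278. Emid2, which the same table gives as a synonym of Col26a1, had 1 count over all libraries.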
